A study of Homo sapiens with 9 samples.

Results

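The antiviral ADP-ribosylation and nuclear body machinery was followed in PC-3 cells through 9 genes, PARP9, PARP10, PARP12, PARP14, DTX3L, ZC3HAV1, SP100, SP110 and PML. The genes were taken by symbol, and each was found once among the 60617 genes of the count tables, and all 9 passed the filter on low counts. PC-3 is an established cell line of castration-resistant prostate cancer. RNA-seq covered 3 libraries each of controls, of decitabine-treated cells (1 µM) and of cells that received the combination treatment, in which 200 µM of S-adenosylmethionine (SAM) was given together with the same dose of decitabine, all taken on day 5. Decitabine is a cytosine analog that traps DNA methyltransferases and lowers DNA methylation, and SAM is the methyl donor of these enzymes. By the study's methods the control cells received the vehicle, sulfuric acid and ethanol in PBS, and no group with SAM alone was used here. All 9 genes were upregulated by decitabine, by 2.41-fold for ZC3HAV1 up to 12.6-fold for SP110. All 9 were lower after the combination treatment than after decitabine alone, though fewer passed the test when some single libraries were left out. The shares of all genes tested were 36.3% for a rise with decitabine and 8.02% for a lower level with the combination than with decitabine.

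ADP-ribosylation is a protein modification in which enzymes of the PARP family transfer ADP-ribose from NAD+ to their targets. Several members of this family are induced by interferon and restrict viruses, by modifying viral or host proteins or, as ZC3HAV1 does, by binding viral RNA and directing it to decay. PML nuclear bodies are dots in the nucleus that are built on the SUMO-modified PML protein, hold proteins of the SP100 family and also respond to interferon.

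Total counts lay between 21934307 and 22489684 per library, and levels are given as CPM (counts scaled to a common library size) after TMM scaling, a correction for differences in library composition. In bulk RNA a change in the RNA per cell and a change in the share of cells that express a gene cannot be told apart. The labelled line was checked with epithelial and prostate markers. KRT18 lay between 293 and 445 CPM and EPCAM between 15.8 and 25.6 CPM, while KLK3, which encodes prostate-specific antigen, was at 0 in all libraries. The summed level of 4 blood cell markers was 0.248 to 0.300 CPM in the controls, 1.06 to 1.77 CPM with decitabine and 0.74 to 1.32 CPM with the combination. Among them PTPRC was the highest after treatment, with at most 1.27 CPM, and CD3E was at 0 in all controls.

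One library stood apart. The third replicate of the combination treatment was the highest of its group for all 9 genes, at 1.25 times (ZC3HAV1) to 2.82 times (PARP10) the mean of the other two. Over all genes, too, it differed more from combination replicates 1 and 2 (chi-square per degree of freedom 23.5 and 15.1) than these did from each other (5.86). The other pairs within a group lay between 6.32 and 18, the largest being replicates 1 and 3 of decitabine and of the controls (17). The ratio of the highest to the lowest library of a group was 1.05 to 1.29 in the controls and 1.10 to 1.36 with decitabine, against 1.27 to 3.05 with the combination. For each of the 9 genes the change from control to combination is therefore given with and without combination replicate 3. Their differences from decitabine without that library are given as a range. For other genes its omission is given for some of the calls that changed. The test shares its estimate of a gene's spread over all 9 libraries. The standard errors and p-values of decitabine against control therefore include the spread within the combination group. Without combination replicate 3, PARP9 rose with decitabine by 2.41 on the log2 scale (adjusted p = 1.2e-09) and PARP10 by 2.98 (adjusted p = 2e-12). Nothing in the labels says whether the replicates were separate cultures, so the p-values measure the spread between these libraries, which may be technical.

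PARP9 and DTX3L encode the partners of one complex, in which PARP9 binds ADP-ribose through its macrodomains and DTX3L is a ubiquitin ligase of the Deltex family. PARP9 (ENSG00000138496) lies on the minus strand of chromosome 3 from 122527924 to 122564577, and DTX3L (ENSG00000163840) on the plus strand from 122564338 to 122575203 (GRCh38). Both genes therefore start from the same stretch of DNA in opposite directions. The PARP9 level was 61.3, 58.4 and 52.5 CPM in the controls, 353, 305 and 259.6 CPM with decitabine and 58.8, 65.2 and 128 CPM with the combination. Control and decitabine libraries did not overlap, whereas combination replicate 1 lay inside the range of the controls. PARP9 rose by 2.41 ± 0.315 (SE) on the log2 scale with decitabine (adjusted p = 0.00037). Combination and control differed by 0.55 ± 0.306 (adjusted p = 0.15), and from decitabine to the combination PARP9 fell by 1.86 ± 0.307 (adjusted p = 0.011). DTX3L was measured at 60.3, 61.5 and 67.7 CPM in the controls, 324, 285 and 271 CPM with decitabine and 76.6, 92.2 and 164 CPM with the combination. Here the 3 groups were fully separated, with the combination between the others. DTX3L rose by 2.21 ± 0.279 on the log2 scale with decitabine (adjusted p = 0.00026) and by 0.81 ± 0.272 with the combination (adjusted p = 0.032), and it was lower with the combination than with decitabine, at -1.40 ± 0.270 (adjusted p = 0.017). Its rise with the combination was 0.41 without replicate 3 (adjusted p = 0.002).

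The RefSeq promoter windows (GRCh38.p14, 250 bases before to 50 bases after a start site) of these partners shared one match to GAAANNGAAA, the core letters of an interferon-stimulated response element (ISRE). It is shown because the same 10 bases, chr3:122564332-122564341, lay upstream of PARP9 and across the start of DTX3L. In the direction of PARP9 the match ran from 41 to 32 bases before the start site at 122564300. In the direction of DTX3L it ran from 6 bases before to 3 bases after the start site of that gene. Another PARP9 window, with its start site at 122564784, held no match. The same 30 bases, chr3:122564322-122564351, are printed 5′ to 3′ on the strand of each gene, with the match in capitals.
PARP9, minus strand: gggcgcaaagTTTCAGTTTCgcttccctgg
DTX3L, plus strand: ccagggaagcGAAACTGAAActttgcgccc

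PARP10, PARP12 and PARP14 encode enzymes that attach single ADP-ribose units to proteins. PARP10 (ENSG00000178685, chromosome 8, 143977153 to 144012772) was present at 18.3, 20.2 and 17.5 CPM in the controls and at 147, 141 and 157 CPM with decitabine. With the combination it reached 23.1 and 26.9 CPM in replicates 1 and 2 and 70.5 CPM in replicate 3, so all 3 libraries were above the controls and below the decitabine libraries. On the log2 scale PARP10 rose by 2.98 ± 0.443 with decitabine (adjusted p = 0.00089). With the combination it was 1.11 ± 0.437, which missed the threshold (adjusted p = 0.061). Without combination replicate 3 the value was smaller, 0.42, and passed it (adjusted p = 0.0016). Between the treatments PARP10 fell by 1.88 ± 0.414 (adjusted p = 0.030). On the opposite strand GRINA, with a mean count of 6137, shares 324 exonic bases with PARP10, which is 5.37% of those of PARP10. The use of strand in counting is not given in the sources used here.

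For PARP12 (ENSG00000059378, chromosome 7, 140023749 to 140062951), which also carries CCCH zinc fingers, the controls gave 43.2, 41.7 and 41.3 CPM and the decitabine libraries 150.4, 137 and 117 CPM. The combination libraries gave 44.7, 41.8 and 63.4 CPM, and replicate 2 was among the controls. PARP12 rose with decitabine by 1.68 ± 0.147 on the log2 scale (adjusted p = 1.9e-06). Between combination and control the difference was 0.25 ± 0.147 (95% interval -0.08 to 0.57, adjusted p = 0.16), and without combination replicate 3 it was 0.04 (adjusted p = 0.76). PARP12 was 2.70-fold lower with the combination than with decitabine (log2 fold change -1.43 ± 0.145, adjusted p = 0.00043).

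PARP14 (ENSG00000173193, chromosome 3, 122680839 to 122730840), a large protein that both transfers and binds ADP-ribose, gave 58.6, 56.4 and 60.7 CPM in the controls, 322, 286 and 269 CPM with decitabine and 68.0, 82.1 and 153 CPM with the combination. Its groups did not overlap. PARP14 rose by 2.32 ± 0.297 on the log2 scale after decitabine (adjusted p = 0.00031) and by 0.79 ± 0.290 after the combination (adjusted p = 0.046), and the treatments were -1.53 ± 0.287 apart (adjusted p = 0.016). Without combination replicate 3 the rise with the combination was 0.35 (adjusted p = 0.0046).

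Matches to GAAANNGAAA were also found before the start sites of PARP12 and PARP14, and these are shown because, like the element of PARP9 and DTX3L, they lay close to the start. In PARP12 the match ended at the base before the start site (chr7:140062952-140062986, minus strand). In PARP14 it lay 29 to 20 bases before the start (chr3:122680785-122680838, plus strand). There a match to TTCNNNGAA, the letters of a gamma-activated site (GAS), stood at chr3:122680799-122680807, 2 bases upstream of it. Capitals mark the match to GAAANNGAAA on either strand.
PARP12: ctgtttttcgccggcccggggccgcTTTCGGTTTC
PARP14: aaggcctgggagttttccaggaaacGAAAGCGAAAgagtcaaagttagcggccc

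ZC3HAV1 encodes the zinc finger antiviral protein, also called PARP13, which has no transferase activity and binds CpG-rich viral RNA. The gene (ENSG00000105939) lies on chromosome 7 from 139043515 to 139132122. It was at 58.2, 68.4 and 74.9 CPM in the controls, 179.7, 153 and 152 CPM with decitabine and 102, 104 and 129 CPM with the combination. All libraries of the combination treatment were above the controls and below those with decitabine. ZC3HAV1 had the smallest rise of the 9 genes with decitabine, 1.27 ± 0.113 on the log2 scale (adjusted p = 4.6e-07). With the combination it was higher than in the controls by 0.73 ± 0.112 (adjusted p = 6.8e-05), and from decitabine to the combination it fell by 0.54 ± 0.110 (adjusted p = 0.0076), the smallest difference of the set. Leaving out combination replicate 3 gave 0.61 (adjusted p = 0.00013) and -0.65 (adjusted p = 0.00071).

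Among the genes of nuclear bodies, PML forms their scaffold. PML (ENSG00000140464, chromosome 15, 73994673 to 74047827) was at 28.2, 31.6 and 32.3 CPM in the controls, 101, 98.2 and 108 CPM with decitabine and 39.0, 43.1 and 63.1 CPM with the combination. The groups were separated, and combination replicate 3 again lay nearest to decitabine. PML rose by 1.74 ± 0.155 with decitabine (adjusted p = 2.4e-06) and by 0.66 ± 0.155 with the combination (adjusted p = 0.0031), with -1.08 ± 0.150 between the treatments (adjusted p = 0.0020). The second of these was 0.41 without combination replicate 3 (adjusted p = 0.00086). SP100 (ENSG00000067066, chromosome 2, 230415942 to 230545606), a constant component of the bodies, was at 42.9, 39.3 and 38.8 CPM in the controls, 183, 161 and 161 CPM with decitabine and 48.9, 48.2 and 86.2 CPM with the combination. Its log2 fold changes were 2.06 ± 0.221 (adjusted p = 5.9e-05), 0.60 ± 0.219 (adjusted p = 0.040) and, between the treatments, -1.46 ± 0.215 (adjusted p = 0.0054). The rise of SP100 with the combination was 0.26 without replicate 3 (adjusted p = 0.012).

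SP110 (ENSG00000135899, chromosome 2, 230165186 to 230225729), a relative of SP100, was the least abundant of the set in the controls when levels were divided by exon length, with 0.83 CPM per kb. The controls gave 8.99, 9.61 and 8.0 CPM, the decitabine libraries 124, 111 and 100.5 CPM and the combination libraries 22.7, 28.7 and 53.2 CPM, without overlap. The largest changes of the set belonged to this gene against the controls, with 3.65 ± 0.336 for decitabine (adjusted p = 4.5e-05) and 1.98 ± 0.333 for the combination (adjusted p = 0.0013). Between the treatments SP110 fell by 1.68 ± 0.294 (adjusted p = 0.012). Without combination replicate 3 its rise with the combination was 1.53 (adjusted p = 1.8e-07). Of its exonic bases, 17.8% are shared with a non-coding gene of the opposite strand with a mean count of 23.0, and the use of strand in counting is not given in the sources used here.

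**Figure D1:**
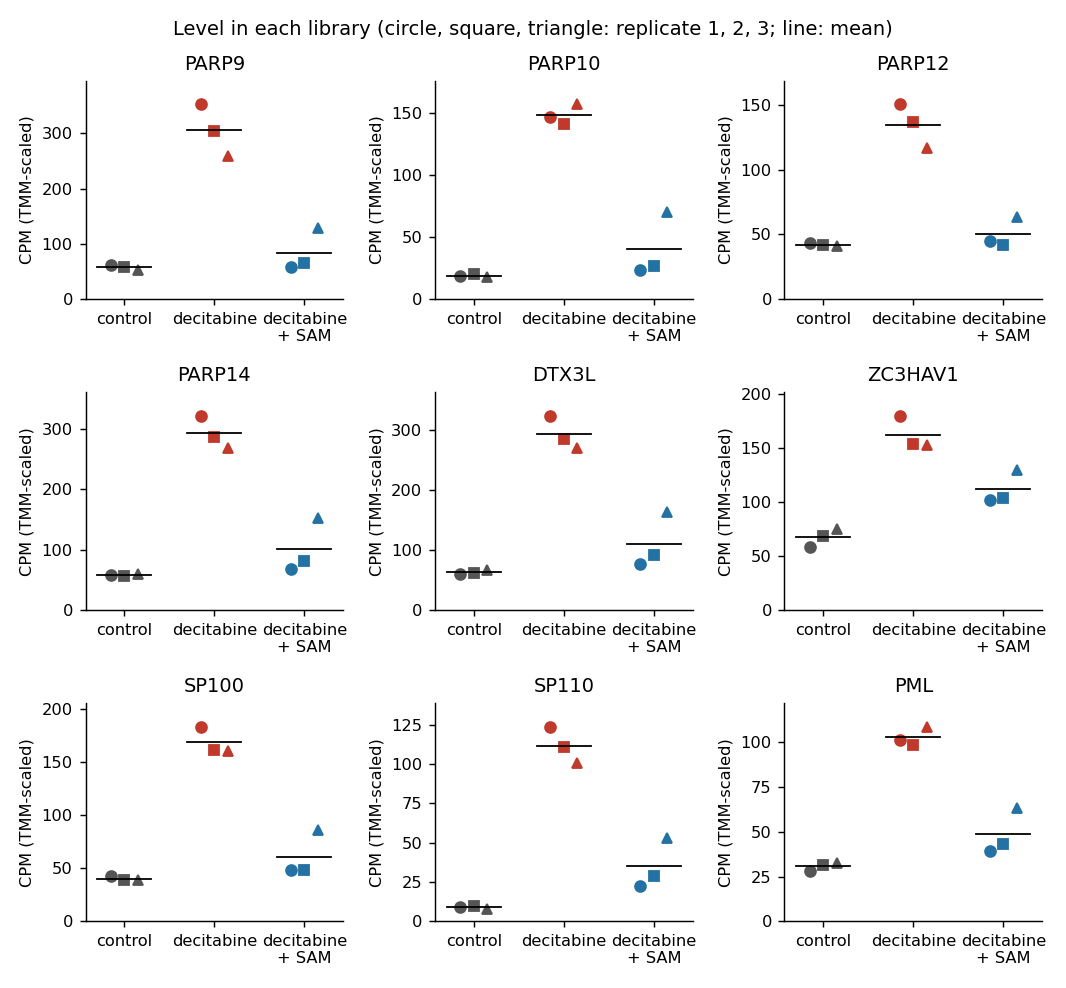
Level of each of the 9 genes in every library, in CPM after TMM scaling on a linear axis from 0; circles, squares and triangles are replicates 1, 2 and 3 and lines are group means. Every decitabine library is above every control and every combination library, and the triangle of the combination group is its highest point in all 9 panels.

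Decitabine against control answered whether the set responded to the demethylating agent. All 9 genes rose (median 2.21 on the log2 scale), and no control library overlapped a decitabine library, as was so for 38.1% of all genes tested in the upward and 34.8% in the downward direction. Changes were common in this comparison. Of the 18532 genes tested, 36.3% rose and 32.5% fell, the median over all of them was 0.03, and 23.2% had a log2 fold change over 1. Each of the 9 genes was past 1. Within the decitabine group, replicate 1 was the highest for 7 genes and replicate 3 the lowest for 7, PARP10 and PML being the exceptions. No setting or omitted library ended any of these 9 calls.

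The combination against control asked how much of this level remained with SAM. Of the 9 genes, 6 rose, namely PARP14, DTX3L, ZC3HAV1, SP100, SP110 and PML, and 0 fell. PARP9, PARP10 and PARP12 did not pass the edgeR test. The number that rose was 7 at an unadjusted p under 0.05, 7 with DESeq2 and 7 with voom and limma, with PARP10 added. In each of these 0 fell. The share of all genes that rose was 35.9%, and 31.3% fell. The set's median was 0.73, against 0.05 over all genes. In 7 genes, all but PARP9 and PARP12, each combination library lay above each control, compared with 38% of all genes. Without combination replicate 3 the number of genes that rose was 7, with PARP10 added, although the values were smaller. For PARP9 the value without it was 0.11 (adjusted p = 0.44), compared with a 95% interval of -0.18 to 1.28 with all libraries. The calls of PARP14, DTX3L and SP100 were close to the threshold. They were lost when any one control was left out (adjusted p between 0.066 and 0.11) or decitabine replicate 1 or 3 was (0.051 to 0.073). They were also lost when the replicate number was fitted as a block. The calls of ZC3HAV1, SP110 and PML held under every setting and omitted library.

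**Figure D2:**
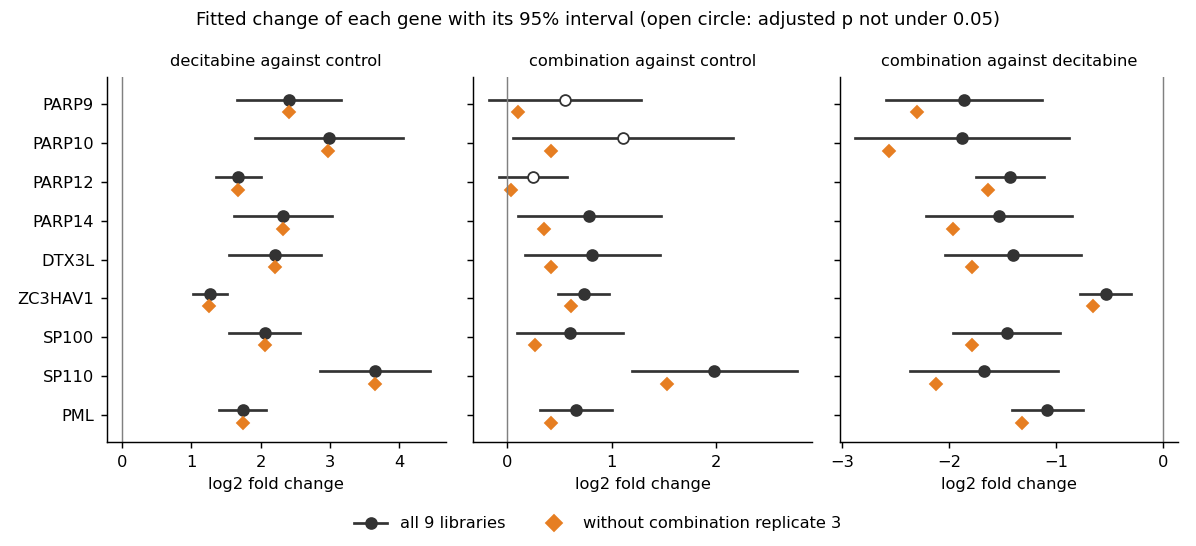
Log2 fold changes of the 9 genes in the 3 comparisons, with 95% intervals from all 9 libraries (circles, open where the adjusted p was not under 0.05) and without combination replicate 3 (diamonds). Without that library the rises with the combination are smaller and the differences from decitabine larger for all 9 genes, while the values of decitabine against control hardly move.

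The direct comparison of the treatments showed all 9 genes lower with the combination than with decitabine, between 1.45-fold (ZC3HAV1) and 3.68-fold (PARP10). Among all genes tested 8.02% of genes were lower and 7.67% higher. The median of the set was -1.46, and that of all genes was 0.00. A log2 fold change under -1 was found for 2.55% of all genes and for all but ZC3HAV1 of the set. Each combination library was below each decitabine library for all 9 genes, and for 16.8% of all genes tested. Leaving out combination replicate 3 gave larger differences, from -0.65 for ZC3HAV1 to -2.56 for PARP10, with 9 calls. Without combination replicate 2 only 4 genes passed the test, PARP9, PARP12, SP100 and PML, and all 9 values stayed negative. The number was 6 without decitabine replicate 1 or 2. PARP10 was the most sensitive. It missed the threshold in 9 of 18 settings, with adjusted p-values up to 0.10.

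The position of each combination library between the controls and decitabine was expressed as the percentage of the decitabine rise (mean CPM of decitabine minus that of the controls) that was still present. In replicate 1 this was 0.55% for PARP9, 2.86% for PARP12, 3.43% for PARP10, 4.04% for PARP14, 5.83% for DTX3L, 6.67% for SP100, 11.5% for PML, 13.5% for SP110 and 36.7% for ZC3HAV1. Replicate 2 gave a similar order, with PARP12 lowest (-0.29%) and ZC3HAV1 highest (38.8%). In replicate 3 the percentages ran from 23.0% for PARP12 to 65.4% for ZC3HAV1. ZC3HAV1 thus kept the largest share in each of the 3 libraries, and PARP9 and PARP12 were the lowest pair in each. The median over the set was 5.83%, 10% and 40.4% in replicates 1, 2 and 3. These percentages use the same controls and decitabine libraries for all genes and are given as a description.

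**Figure D3:**
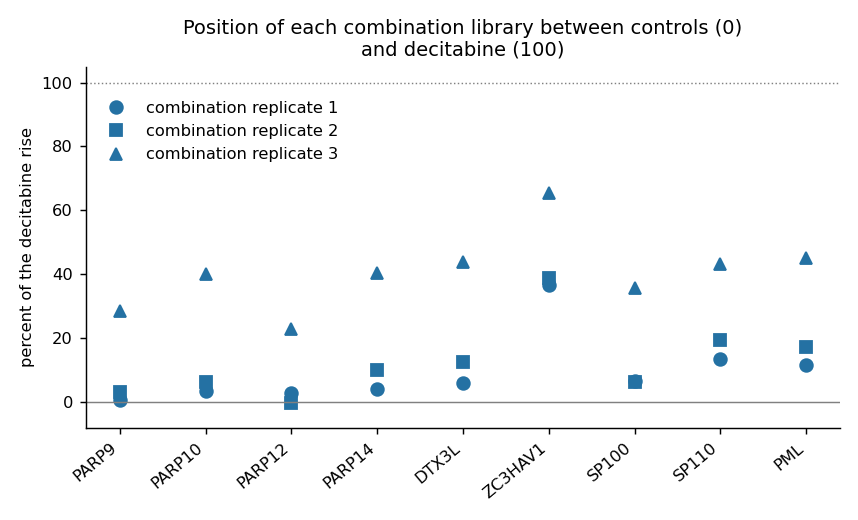
Percentage of the decitabine rise still present in each combination library, for the 9 genes, with 0 at the control mean and 100 at the decitabine mean. Replicate 3 (triangles) lies between 23.0% and 65.4%, above replicates 1 and 2 for every gene, and ZC3HAV1 has the highest value in each library.

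Levels of different genes were compared per kb of exon. In the controls DTX3L was the highest with 11 CPM per kb, followed by ZC3HAV1 (7.94), PARP12 (7.63), PARP9 (6.42), PARP14 (5.70), PARP10 (3.10), SP100 (2.85), PML (2.42) and SP110 (0.83). With decitabine DTX3L was still first with 50.8 CPM per kb and PARP9 came next with 34.2, while ZC3HAV1 (19.1) had moved behind PARP14 (28.5), PARP10 (24.5) and PARP12 (24.5). With the combination ZC3HAV1 (13.2) was second to DTX3L (19.3) again. The values of neighbours in this order were not tested against each other.

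Across the 9 libraries the genes followed each other closely. PARP14 and DTX3L were the most alike pair (Pearson's r of log2 CPM 0.999), PARP9 was closest to SP100 (0.995), PARP10 to PARP14 (0.994), PARP12 to PARP9 (0.993) and PML to DTX3L (0.992). ZC3HAV1 was the least alike member for most of the others, with a lowest r of 0.87 to PARP12. Among 14313 other genes (mean count of 50 or more in any group), the most similar to the mean standardised profile of the set were IFIT2 (r = 0.9988), TRANK1 (0.9982), PLSCR1 (0.9982) and USP18 (0.9973). Of these genes, 471 had an r over 0.9. The 9 points are shared libraries in 3 groups, and no test was made. IFIT2, an interferon-induced RNA-binding protein, shows the same pattern in its libraries. It gave 39.7, 42.7 and 37.9 CPM in the controls, 558, 464 and 407 CPM with decitabine and 68.8, 77.1 and 179 CPM with the combination.

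By position, the set fell into a few groups. On chromosome 3, PARP9 and DTX3L share 139 exonic bases on opposite strands, which is 1.56% of the exonic bases of PARP9 and 2.41% of those of DTX3L, and PARP14 begins 106 kb after the end of DTX3L. SP110 and SP100 are 190 kb apart on chromosome 2, and PARP12 and ZC3HAV1 are 892 kb apart on chromosome 7. A RefSeq promoter window was at hand for 7 of the 9 genes (10 windows). PARP10 and PML had none. The ISRE-type letters GAAANNGAAA, searched on both strands, were in 4 of these 10 windows and in 3.57% of all 35116 windows. The GAS-type letters TTCNNNGAA, which read the same on both strands, were in 3 of 10 windows (PARP14, ZC3HAV1 and SP110) and in 7.66% of all windows. The matches were TTCCAGGAA in PARP14, TTCCGGGAA in ZC3HAV1 at chr7:139109816-139109824 and TTCTCGGAA in SP110 at chr2:230220014-230220022. The windows of PARP9 and DTX3L overlap, and both of their matches are the one shared element. The number of CpG sites per window ranged from 4 and 8 in SP100 to 35 in PARP12, with a median of 13, compared with 14 over all windows. No methylation was measured in these files, and a match is a description of the letters.

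The remaining PARP genes moved in both directions, as did genes in general. Among all genes tested, 36.3% rose and 32.5% fell with decitabine, and 35.9% rose and 31.3% fell with the combination. Between the treatments 7.67% of them were higher and 8.02% lower. Of the 12 PARP genes, 4 rose and 4 fell with decitabine (median log2 fold change 0.15), and 3 rose and 5 fell with the combination (median -0.09). Between the treatments 1 of the 12 was higher and 1 lower. With library size as the only scaling, 8 rose and 2 fell with decitabine and 5 rose and 3 fell with the combination, and no called gene changed its direction. With combination replicate 3 left out, 3 were lower between the treatments in place of 1. Those that fell with decitabine were the DNA repair enzymes PARP1 (-0.35, adjusted p = 0.00069) and PARP2 (-0.74, adjusted p = 1.9e-06), the tankyrase TNKS (-0.76, adjusted p = 5.3e-06) and PARP16 (-0.35, adjusted p = 0.0067). They also fell with the combination, by 0.31, 0.47, 0.77 and 0.40. PARP4 (0.19, adjusted p = 0.048) and PARP11 (0.39, adjusted p = 0.025) rose slightly with decitabine. TIPARP, a target of the aryl hydrocarbon receptor, rose with the combination (0.55, adjusted p = 0.0014) and was 0.21 with decitabine (adjusted p = 0.14). PARP2 was higher with the combination than with decitabine (0.28, adjusted p = 0.035).

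PARP8, another enzyme of the family, fell with the combination treatment. It was at 17.2, 16.2 and 15.3 CPM in the controls, 19.7, 18.8 and 17.9 CPM with decitabine and 8.53, 8.01 and 10.8 CPM with the combination. The combination libraries were below all others, with a log2 fold change of -0.83 from the controls (adjusted p = 2.4e-05) and -1.04 from decitabine (adjusted p = 0.00031). PARP6 rose strongly from a low level, from 0.149, 0.350 and 0.395 CPM in the controls to 5.54, 5.86 and 5.80 CPM with decitabine and 3.79, 3.74 and 4.77 CPM with the combination. Its log2 fold changes of 4.24 (adjusted p = 7.2e-09) and 3.76 (adjusted p = 3e-08) were followed by a difference of -0.48 between the treatments that missed the threshold (adjusted p = 0.083) and passed it without combination replicate 3 (-0.61, adjusted p = 0.041).

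PARP15 lies between DTX3L and PARP14 on chromosome 3, from 122577628 to 122639047. It had 2 counts in all controls together, 51 with decitabine and 23 with the combination. The ratio of summed counts to the controls was 21.7 (95% interval 5.71 to 184, exact and for counting error only) and 10 (2.48 to 87.8). The edgeR test, with fitted folds of 18.7 and 8.72, gave adjusted p-values of 4.4e-05 and 0.0018. Between the treatments PARP15 missed the threshold (log2 fold change -1.10, adjusted p = 0.080).

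The relatives of SP100 changed in the same directions as the set. On chromosome 2, SP140 (230203110 to 230313215) overlaps SP110 on the opposite strand, with 170 shared exonic bases, and SP140L (230327184 to 230403732) lies between SP140 and SP100. Both rose with decitabine and with the combination and were lower with the combination than with decitabine. For all genes tested the shares of these 3 calls were 36.3%, 35.9% and 8.02%. SP140L was at 11.1, 14.5 and 15.6 CPM in the controls, 44.1, 42.6 and 44.6 CPM with decitabine and 15.8, 15.9 and 25.3 CPM with the combination, with log2 fold changes of 1.67 (adjusted p = 8.6e-06), 0.47 (adjusted p = 0.040) and -1.20 (adjusted p = 0.0022). The rise of SP140L with the combination was 0.20 without replicate 3 and was not called (adjusted p = 0.16). SP140 had between 2 and 3 counts per control library, between 28 and 45 after decitabine and between 6 and 20 after the combination, with fitted values of 3.57, 2.11 and -1.46 (adjusted p = 1.9e-05, 0.0049 and 0.018). Its rise with the combination was 1.55 without replicate 3 (adjusted p = 0.034).

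**Figure D4:**
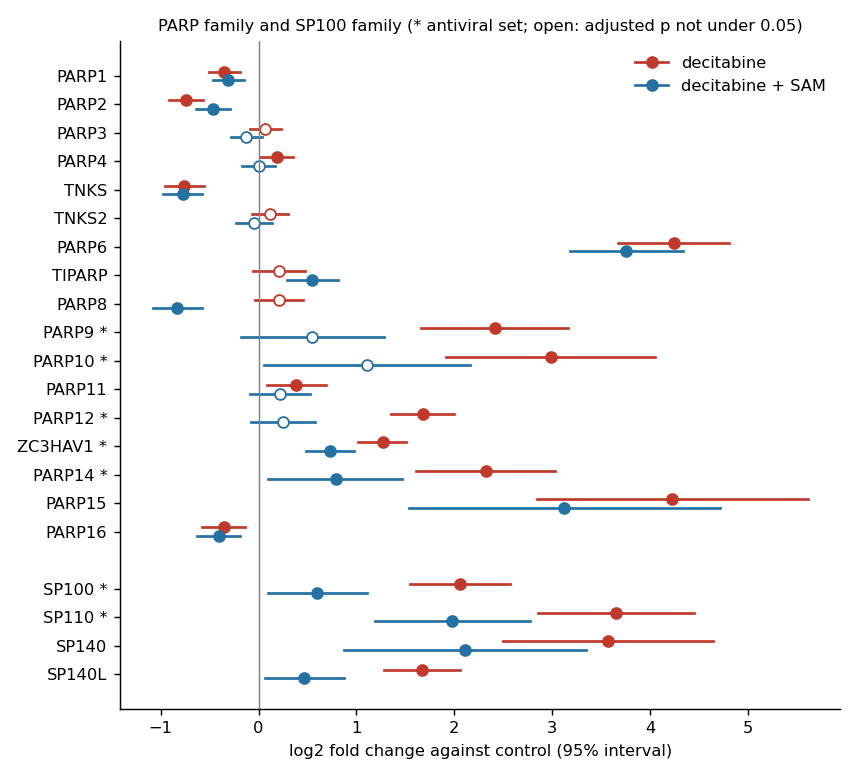
Log2 fold changes against control, with 95% intervals, of the PARP family and the SP100 family for decitabine (red) and the combination (blue); an asterisk marks the genes of the set and open circles an adjusted p not under 0.05. The PARP genes of the set lie to the right with decitabine, whereas most other PARP genes lie within 1 of 0, with PARP6 and PARP15, both of low level in the controls, as the exceptions.

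Partners of the set were read from lists. For comparison, 36.3% of all genes tested rose and 32.5% fell with decitabine, and 35.9% rose and 31.3% fell with the combination. Between the treatments 7.67% of all genes were higher and 8.02% lower. Of the 14 genes of nuclear bodies and the SUMO cycle, 2 rose and 8 fell with decitabine, 2 rose and 7 fell with the combination, and with library size alone 5 rose and 5 fell with decitabine, where SENP6 changed its sign, and 6 rose and 6 fell with the combination. Between the treatments 0 of 14 passed the test with edgeR, 3 were higher and 1 lower at an unadjusted p under 0.05, and DESeq2 called 1 and voom and limma 0. On leaving out combination replicate 3, 2 were called higher, among them SUMO3 (0.27, adjusted p = 0.014), which was named after its values were seen. The largest changes were those of the kinase HIPK2 (-1.14 and -0.96, adjusted p = 1.1e-07 and 6e-07) and the chromatin remodeler ATRX (-1.13 and -1.09, adjusted p = 1.3e-06 and 1.9e-06). Of 6 cofactors of ZC3HAV1, 2 rose and 2 fell with decitabine, and 5 fell with the combination (3 with library size alone, where 1 rose). Between the treatments 3 of the 6 were lower with the combination, and 4 without combination replicate 3. TRIM25, a ubiquitin ligase needed by ZC3HAV1 and named here after its values were seen, was at 327, 301 and 280 CPM in the controls, 327, 276 and 269 CPM with decitabine and 158, 174 and 217 CPM with the combination. It was thus lower with the combination than in the controls (-0.73, adjusted p = 8.4e-05), and not detectably changed with decitabine (-0.06, 95% interval -0.30 to 0.19). N4BP1, a putative nuclease, rose with decitabine (0.75, adjusted p = 3.7e-06) and was at 0.08 with the combination (adjusted p = 0.43). It was lower with the combination than with decitabine (-0.67, adjusted p = 6e-04). The exonuclease DIS3L2 fell with both treatments (-1.01 and -1.32, adjusted p = 4.5e-06 and 3.9e-07).

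Among all genes tested, 36.3% rose with decitabine and 35.9% with the combination, and 8.02% were lower with the combination than with decitabine. Of 3 Deltex relatives of DTX3L that were tested (DTX1 was too low), 2 rose with decitabine and 3 with the combination. Between the treatments 0 of 3 passed the test with edgeR, DESeq2 or voom and limma, nor did any at an unadjusted p under 0.05. When combination replicate 3 was left out, 4 genes were tested, of which 1 passed between the treatments, DTX1, with no counts in the controls. DTX4 rose by 0.73 with decitabine and by 0.60 with the combination (adjusted p = 0.00026 and 0.0015), and DTX3 by 0.84 with the combination (adjusted p = 0.0029). Among 5 transcription factors of interferon signalling, 5 rose with decitabine and 3 with the combination (5 with library size alone, 4 with voom and limma), and 5 were lower with the combination than with decitabine. IRF7 was at 19.2, 19.4 and 13.6 CPM in the controls, 146, 153 and 167 CPM with decitabine and 46.9, 50.1 and 92.7 CPM with the combination. IRF7 was highest in replicate 3 within the combination group, as were the 9 genes of the set.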

How the data were processed

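RNA-seq was performed on 9 libraries of PC-3 cells, which were grouped by their labels (3 control, 3 decitabine, 3 decitabine and SAM). Doses were taken from the study's methods. The values used were the estimated counts per Ensembl gene that the authors deposited, not normalized. According to the submitters' processing notes, Trim Galore 0.6.4, kallisto 0.4.6 and edgeR 3.17 were used, with GRCh38.p13. The annotation release is not given in the sources used here. Deposited log2 CPM values were not used.

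Identifiers were matched to GENCODE (60357 of 60617). Counts were rounded, and the 18532 genes kept by filterByExpr entered edgeR (version 4.0.16, R 4.3.3), with TMM scaling and the robust quasi-likelihood test over all 9 libraries. Adjusted p-values (Benjamini-Hochberg, over every gene tested) under 0.05 were called. The study's methods name voom and limma, which were run as an alternative (limma 3.58.1), as was DESeq2 1.42.0. Scripts were tested on simulated data. Within-group pairs were checked for copies, with none found (chi-square per degree of freedom 5.86 to 23.5). Tables and plots were made in Python 3.11.15 with pandas 2.3.3, numpy 2.4.6 and matplotlib 3.10.9.

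The 9 genes and the gene lists were chosen with earlier results of these data known. Values were given for the 9 genes in all libraries, for called genes of the PARP and SP100 families, for at most 2 genes of each other list with the largest change from control in either treatment (the text says where another was named), and for the genes with the most similar profile. Some results on single genes that this rule names are not reported here.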

Additional observations from a re-analysis of the deposited data

How the results depend on the processing

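With decitabine, all 9 genes were called in all settings tried. These were scaling by library size alone or by DESeq2's size factors, tests by voom and limma or DESeq2, a minimum mean of 10 counts or no filter, a fit to the 6 libraries of a comparison, a replicate block, and omission of each library. With a log2 fold change over 1 required, 9 were called as well. No fold change of the 9 genes changed its direction under these settings. The number of genes that rose with the combination was 6, and it was 3 in the fit to the 6 libraries, 3 with the replicate block, 4 with no filter and 1 with a log2 fold change over 1. It ranged from 3 to 8 when libraries were left out: 3 without any one control or without decitabine replicate 1 or 3, 4 without decitabine replicate 2, 7 without combination replicate 1 or 3 and 8 without combination replicate 2. The number lower than with decitabine was 9, 7 with only the 6 libraries and 4 to 9 with a library left out, the lowest being 4 without combination replicate 2 and the next 6 without decitabine replicate 1 or 2. The causes were not tested. Library size alone moved the median of all genes to 0.28 with decitabine and 0.27 with the combination, and PARP10 (1.34, adjusted p = 0.036) and PARP12 (0.47, adjusted p = 0.020) were called with the combination under it. PARP10 was also called with DESeq2 (adjusted p = 0.015) and voom and limma (0.028). The alternatives for the other gene lists, including those without combination replicate 3, were added after the data had been seen.

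Replicate numbers were shared between groups, but the labels give them no further meaning. Deviations from the group means of same-numbered libraries had correlations of -0.02 to 0.02 between control and decitabine, -0.0039 to 0.0694 between control and combination and 0.04 to 0.23 between the treatments, so the numbers were not taken as pairs. Each of the 6 treated libraries correlated best with its own number in the other treatment, a hint from the data. Under the replicate block PARP14 (0.74, adjusted p = 0.090), DTX3L (0.77, 0.060) and SP100 (0.57, 0.076) were not called with the combination.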

Other observations

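Genes that supply or remove ADP-ribose moved in both directions, as did genes in general. With decitabine 36.3% of all genes tested rose and 32.5% fell, and with the combination 35.9% rose and 31.3% fell. Between the treatments 7.67% of all genes were higher and 8.02% lower. Of 6 enzymes of NAD+ synthesis, 2 rose and 4 fell with decitabine, 1 rose and 4 fell with the combination, and 3 were lower with the combination than with decitabine. With library size as the only scaling, 2 rose and 1 fell with decitabine and 2 rose and 2 fell with the combination. NAMPT, the rate-limiting enzyme of NAD+ salvage, which was named after its values were seen, rose with decitabine (0.50, adjusted p = 0.00019), was at 0.16 with the combination (adjusted p = 0.13) and was lower with the combination than with decitabine (-0.34, adjusted p = 0.022). NADSYN1, which makes NAD+ in its last step from nicotinic acid, was at 57.1, 58.8 and 60.0 CPM in the controls, 36.8, 34.3 and 30.9 CPM with decitabine and 24.1, 25.7 and 24.0 CPM with the combination. Its groups did not overlap, with log2 fold changes of -0.79 (adjusted p = 8.2e-07), -1.25 (adjusted p = 1e-08) and -0.47 between the treatments (adjusted p = 0.0029). NMNAT2 fell by 0.32 with decitabine (adjusted p = 0.014) and by 0.79 with the combination (adjusted p = 1.4e-05).

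Of 6 enzymes that remove ADP-ribose from proteins, 1 rose and 2 fell with decitabine, 2 rose and 3 fell with the combination, and 2 were lower with the combination than with decitabine. With library size alone the numbers were 3 and 1 with decitabine and 2 and 2 with the combination. For comparison, 36.3% of all genes tested rose and 32.5% fell with decitabine, 35.9% rose and 31.3% fell with the combination, and 8.02% were lower between the treatments. ADPRH, an ADP-ribosylarginine hydrolase, was at 15.2, 14.1 and 13.2 CPM in the controls, 42.8, 49.4 and 45.8 CPM with decitabine and 45.7, 47.4 and 49.6 CPM with the combination. It rose by 1.70 (adjusted p = 1.1e-09) and 1.75 (adjusted p = 8.5e-10), and the treatments overlapped (0.05, 95% interval -0.13 to 0.22). MACROD1, a macrodomain hydrolase, fell by 1.59 with decitabine (adjusted p = 3.5e-07) and by 1.58 with the combination (adjusted p = 4.1e-07).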
